A study of Mus musculus with 24 samples.

Results

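The genes described here are 10 genes of the cytosolic DNA sensing pathway, read in dendritic cells grown from mouse bone marrow with and without deletion of Arpc4, whose product is part of the Arp2/3 complex that starts branched actin filaments. The rule lists them by name and uses no measured value, though the list was drawn up with earlier results of these data known. They were taken by symbol from the deposited annotation of 55487 genes. By role they are the DNA sensors Cgas, Ifi204 and Aim2, the adaptor Tmem173 (STING), the kinases Tbk1 and Ikbke, the transcription factor Irf3, the DNA-degrading enzymes Trex1 and Dnase2a, and the deoxynucleotide-degrading enzyme Samhd1. All 10 symbols were found, and 9 of them passed the filter on low counts. Trex1 did not, because it was listed at 0 in all 24 libraries.

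Double-stranded DNA in the cytosol binds cGAS, which then makes a cyclic dinucleotide that binds STING on the endoplasmic reticulum. STING recruits the kinase TBK1, and its relative IKK-epsilon (Ikbke), which phosphorylates IRF3, and IRF3 switches on type I interferon, whose receptor in turn induces a large set of interferon-stimulated genes. AIM2 instead assembles an inflammasome, while TREX1, DNase II and SAMHD1 remove DNA or its precursors and so limit what the sensors meet. Dendritic cells and macrophages are known to carry the whole pathway.

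Marrow came from mice of both sexes aged 8 to 10 weeks, and cells were grown with GM-CSF at 50 ng per mL, replated on days 4 and 7, and collected from suspension on days 7, 8, 9 and 10. In all 8 groups both Arpc4 alleles were floxed. WT mice carried no CD11c-Cre transgene, and KO mice carried 1 copy, which removes the floxed sequence only in cells that have switched on the CD11c promoter, and the cultures were over 90% CD11c-positive per the labels. Each genotype and day had 3 libraries, named by mouse number (63, 65 and 66 in WT, 64, 67 and 68 in KO), so the 24 libraries came from 6 numbered mice and those of different days are not independent.

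Library totals ran from 19952047 to 31049798 counts. Levels are given as CPM, which are counts scaled to library size by the TMM method, unless TPM are named. The deposited TPM are scaled by gene length and were used without TMM factors. Arpc4 itself was lower in every KO library than in every WT library of the same day, at 0.879, 0.877, 0.884 and 0.821 times WT on days 7, 8, 9 and 10 (edgeR adjusted p = 0.177, 0.690, 0.433 and 0.225), so the label check passed in direction but not past the threshold of an adjusted p under 0.05. The deposited counts are summed over the whole gene, and the deleted stretch was not separated from the rest. The Y-linked gene Ddx3y was high in WT 63 on all 4 days, but in KO 64 on days 7 and 9, KO 68 on day 8 and KO 67 on day 10, so a KO number did not stay with the same animal. Genotype comparisons within a day do not use that link. Dendritic cell markers were present in every library, with Itgax, which encodes CD11c, at 750 to 1661 CPM. Macrophage markers were present too (Adgre1 at 459 to 805 CPM), while the plasmacytoid marker Siglech was at 0 in 12 libraries and at no more than 8 counts in the others.

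Promoter sequences are shown first because interferon-responsive genes often carry a short interferon response element near their start. RefSeq promoter windows on GRCm38.p6, covering 250 bases before to 50 bases after the start, were searched on both strands for GAAANNGAAA, where N is any base, and no other motif was searched. Of the 8 DNA sensing genes with an entry (Ifi204 and Tmem173 had none), 0 held the motif. It was held by 3.99% of 27025 genes and by 20 of 37 interferon response genes with an entry (54.1%). Among 11 other genes of the PYHIN family, to which Ifi204 and Aim2 belong, 9 held it (81.8%). Aim2 is counted among the 8 without it. A match is only these letters, not a shown binding site, and its absence says only that they are not in this window. The windows of the sensors Cgas (chr9:78443188-78443487, reverse strand) and Aim2 (chr1:173420354-173420653, forward strand) are given whole, with no capitals because no match was found.
Cgas: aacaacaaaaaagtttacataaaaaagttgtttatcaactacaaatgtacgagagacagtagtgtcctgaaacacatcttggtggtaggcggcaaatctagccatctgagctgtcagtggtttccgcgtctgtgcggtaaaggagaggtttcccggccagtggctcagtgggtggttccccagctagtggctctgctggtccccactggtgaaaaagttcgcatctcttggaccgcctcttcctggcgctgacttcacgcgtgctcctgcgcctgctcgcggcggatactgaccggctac
Aim2: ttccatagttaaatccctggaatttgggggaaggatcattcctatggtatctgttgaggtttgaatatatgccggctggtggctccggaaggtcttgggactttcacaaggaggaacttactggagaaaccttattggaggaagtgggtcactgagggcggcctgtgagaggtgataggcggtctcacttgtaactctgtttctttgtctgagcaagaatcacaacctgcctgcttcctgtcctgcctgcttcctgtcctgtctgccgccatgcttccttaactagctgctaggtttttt

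For comparison, the stretch around the motif is given, with the motif in capitals, for Ifi203 (chr1:173942483-173942562, reverse strand) and Ifi211 (chr1:173913039-173913118, reverse strand), PYHIN relatives of Aim2, and for Isg15 (chr4:156200840-156200931, reverse strand) and Ifit1 (chr19:34640750-34640848, forward strand), commonly used interferon response genes. Isg15 holds 3 overlapping matches and Ifit1 holds 2, read on the other strand.
Ifi203: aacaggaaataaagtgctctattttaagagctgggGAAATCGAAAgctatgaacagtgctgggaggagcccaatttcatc
Ifi211: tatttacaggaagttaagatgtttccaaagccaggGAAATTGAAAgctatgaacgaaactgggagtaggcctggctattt
Isg15: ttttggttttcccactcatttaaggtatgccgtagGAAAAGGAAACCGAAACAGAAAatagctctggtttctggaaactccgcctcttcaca
Ifit1: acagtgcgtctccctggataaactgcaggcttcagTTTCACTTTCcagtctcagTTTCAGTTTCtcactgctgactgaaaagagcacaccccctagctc

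The first comparison asked whether the DNA sensing genes differed between KO and WT cells on each day, with the interferon response beside them. None of the 9 tested genes passed the threshold on day 7, 8, 9 or 10, at a background of 1.45%, 0.00688%, 0.00688% and 0.0138% of 14535 genes called on those days by edgeR's quasi-likelihood test. At an unadjusted p under 0.05 there was 1 gene on day 7 and 1 on day 9, Ifi204 in both cases, and 0 on days 8 and 10. Over all genes 15.7%, 5.91%, 8.15% and 7.30% were under that unadjusted value on days 7 to 10. DESeq2 and limma-voom with a mouse block also called 0 of the 9 on every day. Over all 14535 genes DESeq2 called 523, 17, 98 and 43 on days 7 to 10, and limma-voom 145, 1, 1 and 2. Fold changes of KO against WT ran from 0.892 (Dnase2a on day 10) to 1.32 (Ifi204 on day 9).

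Ifi204 (ENSMUSG00000073489.6, chromosome 1, 173747293 to 173766943, reverse strand, GRCm38) encodes a PYHIN protein that binds DNA and is itself known as interferon-inducible. On day 7 it stood at 71.1, 84.2 and 77.6 CPM in the WT libraries and at 85.9, 107.5 and 90.4 in the KO libraries, so that every KO value lay above every WT value. On day 8 the WT values were 67.5, 79.8 and 67.0 and the KO values 97.6, 70.1 and 77.3. Here the groups overlapped, with KO 64 highest. Day 9 gave 44.2, 49.4 and 51.2 CPM in WT and 62.2, 68.6 and 59.8 in KO, again without overlap. By day 10 WT stood at 55.7, 43.6 and 43.9 and KO at 62.6, 54.4 and 46.9, which overlapped. Its log2 fold change was 0.29 (SE 0.13, adjusted p = 0.288), 0.19 (SE 0.13, adjusted p = 0.911), 0.40 (SE 0.13, adjusted p = 0.339) and 0.19 (SE 0.13, adjusted p = 0.803) on days 7 to 10 by edgeR. The day 9 adjusted p ranged from 0.145 to 0.861 over 13 alternative settings. With 1 mouse number left out the day 8 value ran from 0.05 (without KO 64) to 0.31 (without KO 67), and the day 10 value from 0.10 (without KO 64) to 0.32 (without WT 63). Ifi204 has close relatives in the same gene cluster, and reads shared among them cannot be assigned from the deposited counts.

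Cgas (ENSMUSG00000032344.17, chromosome 9, 78430526 to 78443237, reverse strand) encodes the enzyme that senses cytosolic DNA. On day 7 the WT libraries held 12, 11.2 and 11.3 CPM and the KO libraries 12.5, 15.7 and 12.3, so the groups did not overlap, although KO 64 and KO 68 were close to WT. The day 8 values were 19.1, 16.8 and 18 in WT and 20.2, 20.4 and 15.1 in KO. On day 9 WT held 19.5, 16.8 and 17.7 and KO 16.3, 25.4 and 20.4. On day 10 WT held 17.6, 14.8 and 15.7 and KO 26.1, 15.9 and 18.4. The KO libraries thus spread on both sides of WT on days 8 and 9, and 1 KO library stood well above the rest on days 9 and 10. The log2 fold changes of 0.23, 0.05, 0.20 and 0.33 had standard errors of 0.17 and adjusted p of 0.557, 0.993, 0.853 and 0.705 by edgeR. Leaving out 1 mouse number, the day 7 difference ran from 0.12 (without KO 67) to 0.31 (without KO 64), the day 9 difference from 0.03 (without KO 67) to 0.35 (without KO 64) and the day 10 difference from 0.11 (without KO 64) to 0.48 (without KO 67). On day 8 it ran from -0.01 (without KO 67) to 0.18 (without KO 68).

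Aim2 (ENSMUSG00000037860.15, chromosome 1, 173350879 to 173466040, forward strand), the PYHIN sensor that builds an inflammasome, had a negative difference on day 7, without a call. Its day 7 values were 54.2, 53.8 and 50.4 CPM in WT and 50.4, 48.9 and 42.2 in KO, with every KO value below every WT value by a margin that rounding hides for KO 64. On day 8 the 6 libraries lay between 38.1 and 40.0 CPM. The log2 fold change of Aim2 was -0.16 (SE 0.09, adjusted p = 0.362) on day 7 and -0.01, -0.10 and -0.08 on days 8, 9 and 10. Over left-out mouse numbers the Aim2 value ran from -0.19 to -0.08 (without KO 68) on day 7, from -0.17 (without WT 63) to -0.05 (without WT 66) on day 9 and from -0.15 (without KO 64) to -0.0064 (without WT 63) on day 10. Its 95% interval on day 7 ran from -0.34 to 0.02.

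The adaptor Tmem173, which encodes STING (ENSMUSG00000024349.10), varied more between KO libraries than between WT libraries. On day 7 WT stood at 38.4, 39.4 and 38.5 CPM and KO at 39.8, 56.6 and 44.8, with no overlap and KO 67 far above the others. On day 9 WT stood at 74.1, 68.8 and 76.0 and KO at 57.1, 94.5 and 80.4, so that KO held both the lowest and the highest library. The log2 fold change was 0.28 (SE 0.16, adjusted p = 0.399) on day 7, and 0.13, 0.08 and 0.04 on the later days. Without KO 67 the day 7 value of Tmem173 was 0.14 and the day 9 value was -0.08. Its day 8 value ran from 0.06 to 0.20 over left-out mouse numbers.

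The kinases and Irf3 had differences between -0.14 and 0.09 on the 4 days. Tbk1 (ENSMUSG00000020115.3), the main kinase of the pathway, stood at 75.3 to 96.3 CPM over the WT libraries and 78.0 to 97.9 over the KO libraries of all days. Its log2 fold change was between -0.01 and 0.09, and the 95% interval on day 7 ran from -0.06 to 0.22. The day 7 value of Tbk1 ran from 0.03 to 0.16 over left-out mouse numbers. Ikbke (ENSMUSG00000042349.13) gave 0.01, -0.03, 0.03 and -0.01 on days 7 to 10, with wider intervals, for example -0.30 to 0.32 on day 7. Its KO libraries spread from 125.0 to 182.9 CPM on day 8, around WT values of 151.7 to 165.1. Irf3 (ENSMUSG00000003184.15), the factor that TBK1 activates by phosphorylation, which transcript counts do not show, stood at 43.2 to 51.6 CPM in WT and 40.2 to 49.6 in KO. Its largest difference was on day 8, at -0.14 (SE 0.08, adjusted p = 0.875), and it ran from -0.23 (without KO 68) to -0.07 (without WT 66). Irf3 shares 2.56% of its exonic bases with Bcl2l12 on the opposite strand, which held 5782 counts in all, 19.6% of those of Irf3, and whether counting used strand is not given in the sources used here.

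Among the enzymes that limit DNA, Dnase2a (ENSMUSG00000003812.13), which encodes the lysosomal nuclease DNase II, had negative differences on each day without passing the test. The log2 fold changes were -0.11, -0.15, -0.14 and -0.17 with standard errors of 0.09 and adjusted p of 0.608, 0.905, 0.776 and 0.736. On day 9 its WT libraries stood at 113.7, 113.3 and 104.0 CPM and its KO libraries at 102.3, 96.3 and 101.1, without overlap. On day 7 the difference rested on KO 67, at 134.0 CPM beside 162.8 and 171.1, and without that mouse number it was 0.01. The Dnase2a value ran from -0.20 (without KO 68) to -0.07 (without WT 66) on day 8 and from -0.24 (without WT 63) to -0.07 (without WT 66) on day 10. Samhd1 (ENSMUSG00000027639.16), which hydrolyses deoxynucleotides, stood on day 7 at 375.1 to 403.1 CPM in WT libraries, and its KO libraries spanned 397.9 to 426.0. Its differences were 0.10, 0.12, 0.11 and 0.00 with standard errors of 0.07, and on day 9 its groups did not overlap. Over left-out mouse numbers the Samhd1 value of day 8 ran from 0.05 (without KO 64) to 0.19 (without KO 68). In all, the groups did not overlap for 4 of the 9 genes on day 7 (Cgas, Ifi204 and Tmem173 higher in KO, Aim2 lower), for 0 on day 8, for 4 on day 9 (Ifi204, Tbk1 and Samhd1 higher, Dnase2a lower) and for 0 on day 10. The shares of all genes tested without overlap were 26.2%, 9.39%, 14.1% and 10.4% on those days.

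**Figure D1:**
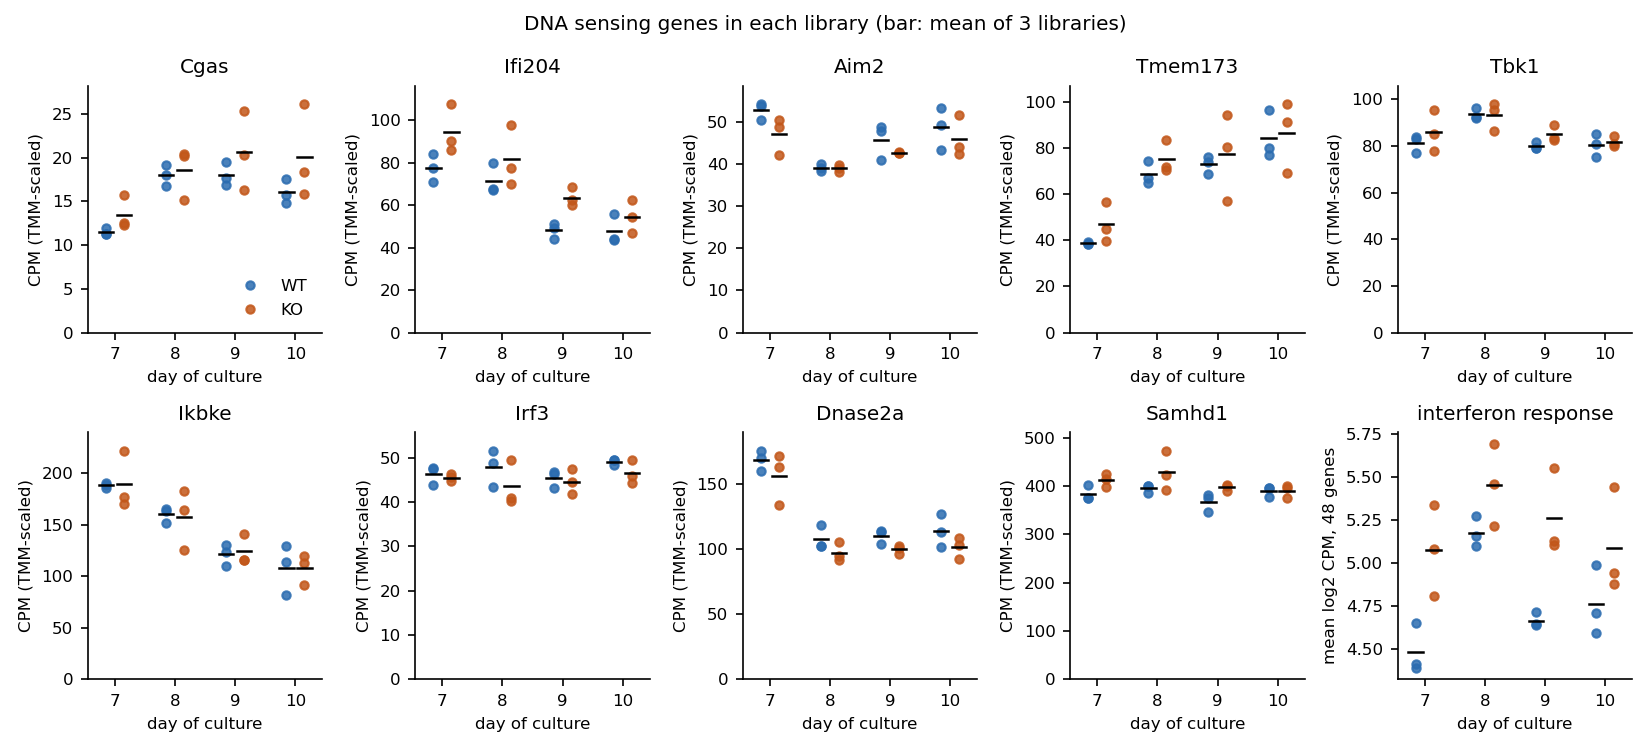
CPM of the 9 measured DNA sensing genes in each library by day of culture (WT blue, KO orange, bar at the mean of 3 libraries), with the mean log2 CPM of 48 interferon response genes in the last panel. The means of Tmem173 and Cgas are higher after day 7 in both genotypes, and those of Dnase2a and Ikbke lower. The KO libraries of Cgas and Ikbke on day 8 overlap those of day 7. In the interferon panel the KO means (5.08, 5.46, 5.26 and 5.09) lie above the WT means (4.48, 5.18, 4.67 and 4.76).

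The interferon response was read from a list of 48 genes that holds none of the 10. Its median log2 fold change of KO against WT was 0.50, 0.27, 0.52 and 0.25 on days 7 to 10, with 47, 46, 48 and 44 of the 48 genes above 0, beside medians over all genes of -0.01, 0.00, 0.00 and 0.00. Over left-out mouse numbers the list's median ran from 0.43 to 0.60 on day 7, from 0.17 (without KO 64) to 0.36 on day 8, from 0.41 to 0.60 on day 9 and from 0.12 (without KO 64) to 0.36 on day 10. Beside 1.45% of all genes, edgeR called 11 of the 48 genes on day 7, all higher in KO. They included Oas2 (39.0 ± 12.4 CPM in KO and 16 ± 2.04 in WT, SD, n = 3 each), an enzyme of the antiviral oligoadenylate system, and Ifi27l2a (53.0 ± 25.7 and 18.6 ± 3.23). Oas2 differed by 1.29 on the log2 scale (adjusted p = 0.00910) and Ifi27l2a by 1.51 (adjusted p = 0.0160). That count of 11 became 1, 1 and 0 without WT 63, 65 and 66, and 26, 4 and 6 without KO 64, 67 and 68. Over all genes the same fits called 40, 21 and 11, and 351, 99 and 137, against 211 with every library. On days 8, 9 and 10 DESeq2 called 0, 16 and 0 of the 48, beside 17, 98 and 43 of 14535 genes. EdgeR called 0 on those days. At an unadjusted p under 0.05 by edgeR were 8, 40 and 21, beside the 5.91%, 8.15% and 7.30% of all genes given above. The 2 with the smallest p were Oasl1 and Parp14 on day 8 (log2 fold change 1.17 and 0.32), Irf7 and Xaf1 on day 9 (1.28 and 0.77) and Mx1 and Xaf1 on day 10 (0.59 and 0.56). Irf7 encodes the interferon-amplifying relative of Irf3.

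Beside these medians, the median over the 9 DNA sensing genes was 0.08, -0.01, 0.08 and 0.00 on days 7 to 10, and the difference between the lists was not tested. Interferon transcripts themselves were near 0: of 20 interferon genes listed, 16 had no count in any library and none passed the filter. Ifnb1, the first interferon gene that IRF3 induces, had 0 counts in all 6 libraries of day 7. It had 16 counts in all libraries together, 6 in WT and 10 in KO, and at most 4 in a library.

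**Figure D2:**
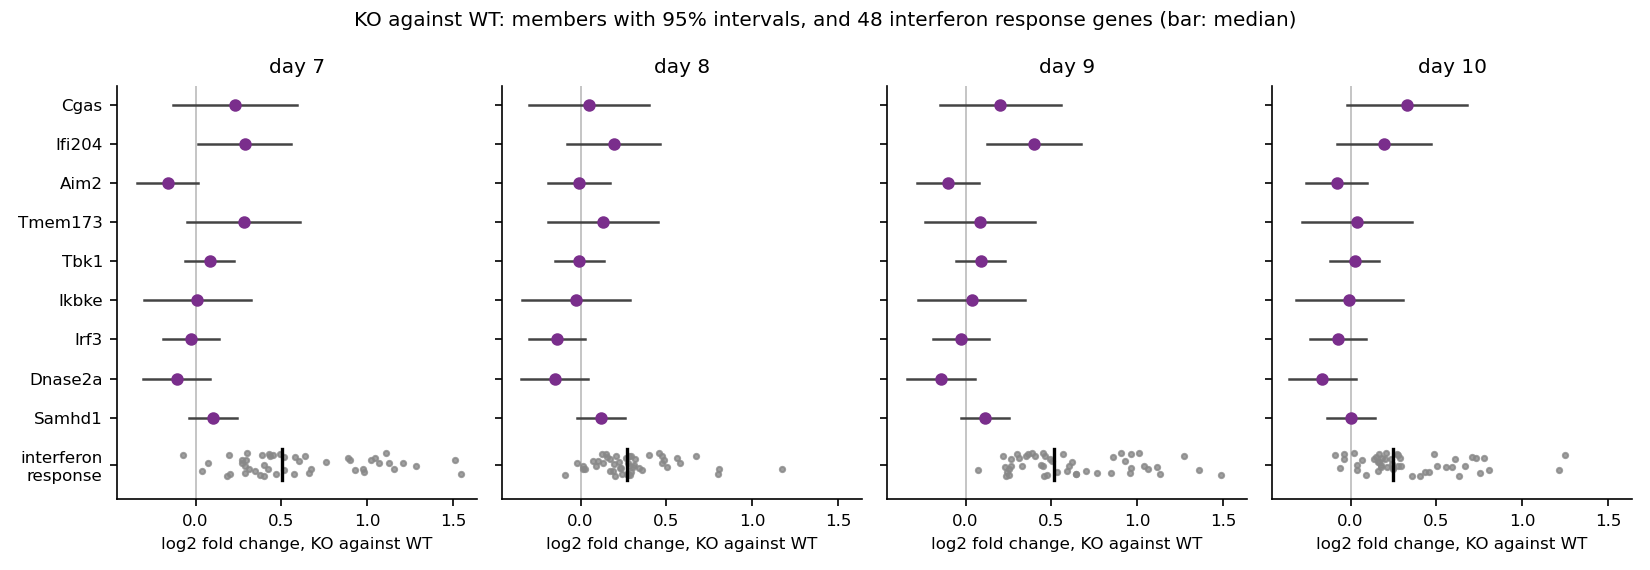
Log2 fold change of KO against WT on each day for the 9 measured genes (points with 95% intervals) and for 48 interferon response genes (grey points, bar at the median). The interferon median lies at 0.50, 0.27, 0.52 and 0.25, while the 9 genes lie between -0.17 and 0.40.

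The other genes of the pathway were read from fixed lists. Among the PYHIN relatives 12 were listed and 10 tested. On day 7, 2 were called higher in KO, beside 1.45% of all genes called. All 10 were above 0 on that day, with a median log2 fold change of 0.57. Ifi205 stood at 1.03 ± 0.0370 CPM in KO and 0.173 ± 0.0779 in WT (log2 fold change 2.55, edgeR adjusted p = 0.00117), resting on 24 to 25 counts per KO library and 2 to 5 per WT library. Ifi213 stood at 6.00 ± 1.63 and 1.82 ± 0.613 (1.72, edgeR adjusted p = 0.0322). On days 8, 9 and 10 edgeR called 0 of the 10, and DESeq2 called 0, 2 and 0, beside 17, 98 and 43 of 14535 genes. At an unadjusted p under 0.05 by edgeR were 2, 9 and 5 of them, beside 5.91%, 8.15% and 7.3% of all genes. The medians of the 10 were 0.39, 0.71 and 0.35 and all 10 lay above 0 on each day. Their relative Aim2 had the negative values given above, of which that of day 8 changed sign under 6 of 13 alternatives and that of day 10 under 1, and the difference from the list was not tested.

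Of 17 other sensors and cofactors, 1 was called on day 7, beside 1.45% of all genes. It was Zbp1, a sensor of Z-form nucleic acid that is interferon-inducible, at 26.6 ± 7.56 CPM in KO and 15.9 ± 0.673 in WT (log2 fold change 0.75, edgeR adjusted p = 0.0326). By edgeR none of 14 STING regulators, 15 genes of TBK1, IRF3 and NF-kB signalling, 7 tested nucleases or 9 genes of the AIM2 inflammasome was called on any day, with 0 to 3 per list and day at an unadjusted p under 0.05. DESeq2 called 1 gene higher in each of the first 3 of these lists on day 7, 1 STING regulator lower on day 8 and 1 signalling gene higher on day 9. Those calls stand beside 523, 17 and 98 of 14535 genes called by DESeq2 on these days. Over all genes 15.7%, 5.91%, 8.15% and 7.3% were at an unadjusted p under 0.05 by edgeR on days 7 to 10. The median log2 fold change of these 4 lists lay between -0.10 and 0.17 over the 4 days. Trim56, a ubiquitin ligase that acts on cGAS and STING, had log2 fold changes of 0.27, 0.22, 0.23 and -0.0031 on days 7 to 10 with adjusted p of 0.0806, 0.639, 0.331 and 0.998. Insig1, which retains proteins in the endoplasmic reticulum, had 0.10, -0.46, -0.32 and -0.17, with adjusted p of 0.666, 0.224, 0.261 and 0.738. Adar, which edits double-stranded RNA, had 0.35, 0.16, 0.29 and 0.25 on days 7 to 10, with adjusted p of 0.0643, 0.875, 0.297 and 0.463. The inflammasome adaptor Pycard had 0.09 on day 7 (adjusted p = 0.685).

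Cell type markers were read in the same way on day 7, when 1.45% of all genes were called and 15.7% were at an unadjusted p under 0.05. EdgeR called 0 of 10 dendritic cell markers, and 8 were above 0 (median 0.41, 1 at an unadjusted p under 0.05). It called 1 of 9 macrophage markers higher in KO and 1 of 4 tested plasmacytoid markers lower. Of 5 monocyte markers 1 was called higher and all 5 were above 0 (median 0.47). Of 10 neutrophil markers 0 were called and 8 were above 0 (median 0.49, 5 at an unadjusted p under 0.05), and of 5 mast cell and basophil markers 0 were called and 5 were above 0 (median 0.89, 3 at an unadjusted p under 0.05). Cycling genes had a median log2 fold change of 0.76 on day 7 with 19 of 20 above 0 and 0 called by edgeR (13 at an unadjusted p under 0.05), and their summed level was 486 to 558 CPM in WT and 635 to 968 in KO. DESeq2 called 1 neutrophil, 2 mast cell and basophil and 2 cycling genes higher on day 7, beside 523 of 14535 genes. Summed dendritic cell markers overlapped on day 7 (2542 to 3231 CPM in WT, 2892 to 3621 in KO), as did macrophage markers (6495 to 7254 and 5259 to 8365). On days 8, 9 and 10 edgeR called 0 genes of these 7 marker lists, with at most 2 per list at an unadjusted p under 0.05. DESeq2 called 1, a macrophage marker higher on day 10, beside 43 of 14535 genes on that day. All 5 mast cell and basophil markers were above 0 on days 8 and 9 (medians 0.49 and 0.62), on day 9 with 4 of 5 without overlap, beside 14.1% of all genes. All 10 neutrophil markers were below 0 on day 10 (median -0.34), with 0 without overlap. Of the 10 dendritic cell markers 9, 9 and 7 were above 0 on days 8, 9 and 10 (medians 0.30, 0.31 and 0.15). In bulk RNA a change in the share of cells and a change per cell cannot be told apart, and the part of these markers in the values above was not tested.

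The second comparison asked how the genes changed with time in culture. Tmem173 and Cgas rose, and Ifi204, Ikbke and Dnase2a fell, from day 7 to day 10 in WT cells, and the same 5 genes passed in the same directions in KO cells. Those 5 of 9 stand beside 37.0% of all genes called in WT and 36.8% in KO, so a call is common in this comparison. Aim2, Tbk1, Irf3 and Samhd1 did not pass in either genotype, with log2 changes between -0.12 and 0.08. These calls depend on the scale, and the deposited TPM were used without TMM factors. On log2(TPM + 1) the all-gene median itself was 0.21 for WT and 0.25 for KO. There limma called 6877 of 14535 genes in WT and 7499 in KO, and 3 of the 4 higher in both genotypes. They were Tbk1 (0.26 and 0.23, adjusted p = 0.00963 and 0.0174), Irf3 (0.36 and 0.33, adjusted p = 0.00260 and 0.00399) and Samhd1 (0.30 and 0.23, adjusted p = 0.00771 and 0.0351). The WT and KO comparisons share no libraries, while those of day 8 and day 10 share the day 7 libraries of their genotype.

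Tmem173 rose from 38.4, 39.4 and 38.5 CPM on day 7 to 66.8, 64.9 and 74.3 on day 8 and to 80.0, 76.9 and 96.4 on day 10 in WT libraries. The log2 change to day 10 was 1.12 (SE 0.16, adjusted p = 1.77e-05), or 2.18-fold. In KO it rose from 39.8, 56.6 and 44.8 to 99.0, 69.3 and 91.3 CPM, a log2 change of 0.88 (SE 0.16, adjusted p = 0.000214). No day 10 library overlapped a day 7 library in either genotype. Cgas rose to day 10 by 0.48 in WT (SE 0.17, adjusted p = 0.0337) and by 0.58 in KO (SE 0.17, adjusted p = 0.0113). The KO change of Cgas was 0.29 without KO 64 and 0.84 without KO 67. The WT call of Cgas was lost without WT 63, 65 or 66 (adjusted p = 0.167, 0.105 and 0.156) and in limma-voom with a mouse block (0.0616), which changes the tool as well, and the KO call without KO 64 or 68 (0.206 and 0.0536) and in a fit of only the groups compared (0.0753).

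Ikbke fell from 188.7, 190.1 and 185.7 CPM to 128.9, 114.0 and 81.7 in WT and from 221.8, 169.7 and 176.7 to 91.1, 119.7 and 112.3 in KO. The log2 changes were -0.80 (SE 0.15, adjusted p = 0.000351) and -0.81 (SE 0.15, adjusted p = 0.000326). Ifi204 fell by 0.70 in WT and by 0.79 in KO on the log2 scale (SE 0.13 each, adjusted p = 0.000302 and 0.000101), with no overlap between day 7 and day 10. Dnase2a fell from 159.8, 175.5 and 169.7 CPM to 101.6, 113.0 and 126.9 in WT and from 162.8, 134.0 and 171.1 to 92.5, 103.2 and 108.7 in KO. Its log2 changes were -0.56 and -0.62 (SE 0.09 each, adjusted p = 9.60e-05 and 4.47e-05). About 30% of its exonic bases overlap Mast1 on the opposite strand, where Mast1 held 117 counts in all, 0.156% of those of Dnase2a. On log2(TPM + 1) all 3 falls to day 10 also passed but were smaller in WT and KO, at -0.28 and -0.30 for Dnase2a, -0.42 and -0.48 for Ifi204 and -0.53 and -0.50 for Ikbke, on a scale where the median change of all genes was 0.21 and 0.25, beside -0.02 and 0.00 by edgeR.

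Part of the change was present on day 8, the first day after the second replating. In WT 5 of 9 genes passed from day 7 to day 8, beside 43.4% of all genes, and in KO 4 of 9, beside 42.0%. Tmem173 rose by 0.83 in WT and 0.68 in KO (adjusted p = 0.000261 and 0.00156), and Cgas by 0.64 and 0.46 (adjusted p = 0.00475 and 0.0338). Dnase2a fell by 0.64 and 0.68 on the log2 scale (adjusted p = 1.48e-05 and 7.98e-06). Aim2 fell by 0.43 in WT and 0.27 in KO (adjusted p = 0.000427 and 0.0146), and by day 10 it no longer differed past the threshold from day 7. On log2(TPM + 1) neither day 8 change of Aim2 passed by limma (-0.20 and -0.040, adjusted p = 0.178 and 0.803). Tbk1 rose by 0.20 in WT (adjusted p = 0.0212) and had a change of 0.11 in KO (adjusted p = 0.192). That difference between genotypes was not tested. On log2(TPM + 1) limma called Tbk1 higher in KO too (0.34, adjusted p = 0.00129). Left-out mouse numbers gave 0.036 to 0.17 for Tbk1 in KO by edgeR. Ifi204 had -0.12 and -0.21 on day 8 and Ikbke -0.23 and -0.27, with no call by edgeR over all groups. In CPM Ifi204 was lower on day 8 than on day 7 in each of the 3 WT mouse numbers, and pairing in WT alone was not fitted. Ikbke in WT passed in a fit of only the groups compared (-0.22, adjusted p = 0.00674). Its WT libraries of day 8 all lay below those of day 7 in CPM. Over the 13 alternatives, however, the Ikbke change came as near 0 as -0.0053 in WT and -0.046 in KO. In TPM its WT means were 55.4 on day 7 and 55.2 on day 8. Ifi204 in KO passed without KO 64 (-0.43, adjusted p = 0.0232). The Tbk1 call in WT was lost without WT 63, 65 or 66 (adjusted p = 0.0662, 0.0876 and 0.0991) and, with all libraries, without the filter on low counts (0.0664). The KO calls of Cgas and Aim2 were lost in a fit of only the groups compared (0.0528 and 0.0603). They were also lost for Cgas without KO 64 or 68 or any of the 3 WT mouse numbers (0.106, 0.0557 and 0.0521 to 0.0561), and for Aim2 without KO 64 or 67 (0.0800 and 0.0991).

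The interferon response was read over the same days. From day 7 to day 8 edgeR called 30 of the 48 genes higher and 1 lower in WT (median log2 change 0.69), and 20 higher and 2 lower in KO (0.40). From day 7 to day 10 the counts were 16 higher and 2 lower in WT (0.23) and 7 higher and 4 lower in KO (0.03). Over all genes the shares called were the 43.4% and 42.0% for day 8 and the 37.0% and 36.8% for day 10 given above. In WT the day 10 total was 6 and 11 without WT 63 and 66, and in KO it was 17 and 7 without KO 67 and 68. Over all genes these fits called 3554 and 3255 in WT and 5805 and 3651 in KO, against 5376 and 5353 with every library. The day 8 total in KO was 13 without KO 64, beside 4667 over all genes, against 6110 with every library. The medians moved as well, for day 8 in KO from 0.15 (without KO 64) to 0.58 (without KO 67), for day 10 in WT from 0.10 (without WT 63) to 0.44 (without WT 65) and for day 10 in KO from -0.23 (without KO 64) to 0.27 (without KO 67). The mean over the list was 4.48 ± 0.14, 5.18 ± 0.09, 4.67 ± 0.04 and 4.76 ± 0.20 log2 CPM in WT on days 7 to 10 and 5.08 ± 0.26, 5.46 ± 0.24, 5.26 ± 0.25 and 5.09 ± 0.31 in KO (SD, n = 3 each).

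Cell type markers moved with the days as well, beside the same shares of all genes. From day 7 to day 8 edgeR called 14 cycling genes higher and 1 lower of 20 in WT, and 4 and 1 in KO. Of 9 macrophage markers 2 were called higher and 2 lower in WT and 3 lower in KO, and of 10 neutrophil markers 3 were called lower in WT and 5 in KO. Of 5 monocyte markers 2 were called higher and 2 lower in WT, and 1 and 2 in KO. Summed monocyte markers were 2033 to 2646 CPM on day 7 and 687 to 742 on day 8 in WT, and 2136 to 2933 and 662 to 1070 in KO. In the day 10 comparison edgeR called 1 monocyte marker higher and 1 lower in each genotype. Cycling genes were called higher on day 10 for 19 of 20 genes in each genotype, with medians of 2.38 in WT and 1.64 in KO. Dendritic cell markers were called higher for 8 of 10 in each, and macrophage markers lower for 6 of 9 in WT and 7 of 9 in KO. Of 10 neutrophil markers 5 were called higher and 1 lower in WT (median 0.90), and 0 higher and 2 lower in KO (median 0.02). Of 5 mast cell and basophil markers 0 were called in WT (median 0.12, 0 at an unadjusted p under 0.05) and 1 was called lower in KO (median -0.79). Summed macrophage markers were 6495 to 7254 CPM on day 7 and 2474 to 2514 on day 10 in WT, and 5259 to 8365 and 2001 to 3350 in KO. Their part in the changes of Tmem173, Cgas, Ifi204, Ikbke and Dnase2a was not tested.

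**Figure D3:**
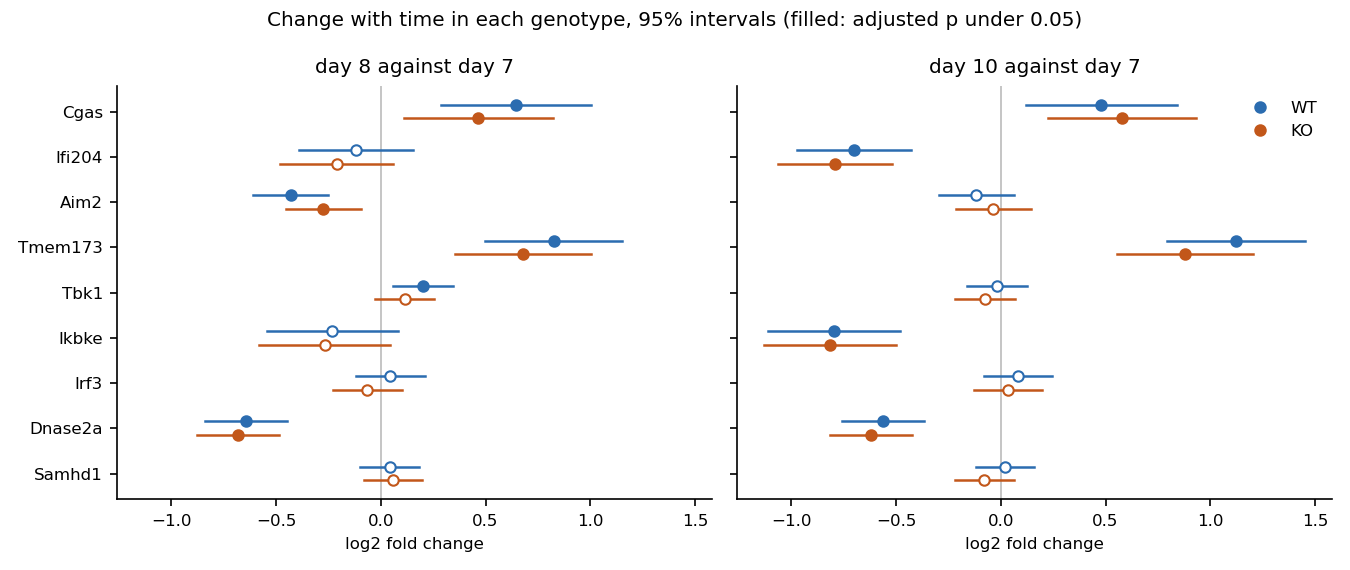
Log2 fold change of day 8 and day 10 against day 7 for the 9 measured genes in WT (blue) and KO (orange), with 95% intervals, filled where the adjusted p is under 0.05. Tmem173 and Cgas lie to the right of 0 and Dnase2a to the left on both days, and the WT and KO points of each gene lie close together.

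The difference between the genotypes' changes from day 7 to day 10 was tested as an interaction, which uses the same libraries as the comparisons above. None of the 9 genes passed, with 0 at an unadjusted p under 0.05 by edgeR and 0 called by DESeq2. Over all genes edgeR called 0.0619% and DESeq2 39 of 14535. The largest difference was that of Tmem173, at -0.24 (95% interval -0.70 to 0.21, adjusted p = 0.925). Tbk1 at -0.06 (-0.26 to 0.14) and Samhd1 at -0.10 (-0.30 to 0.10) had the narrowest intervals. Of the interferon response genes 0 of 48 passed, with a median of -0.19, 40 below 0 and 5 at an unadjusted p under 0.05 (6.31% of all genes), and DESeq2 called 0. With 1 mouse number left out, which in KO is not 1 animal across days, that median ran from -0.42 (without KO 64) to -0.05 (without KO 67).

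Compared per gene length in the deposited TPM, Samhd1 was the most abundant of the 10 in every group, at 111.5 ± 4.16 TPM in WT on day 7 and 152.4 ± 19.9 in KO on day 8 as its lowest and highest group means. Cgas was the least abundant gene measured, from 7.39 ± 0.25 TPM in WT on day 7 to 17.1 ± 4.97 in KO on day 9. In CPM Cgas stood at 11.5 ± 0.44 and 20.7 ± 4.54 in these groups. The sensor at the head of the pathway thus had fewer transcripts per length than any of the other 8 in each group, without overlap. In WT on day 7 the order below Samhd1 was Dnase2a (82.9), Ifi204 (57.9), Ikbke (55.4), Tbk1 (55.2), Aim2 (40.0), Tmem173 (37.5) and Irf3 (35.8). Ifi204, Ikbke and Tbk1 overlapped in that order, as did Aim2 and Tmem173. In WT on day 10 Tmem173 was second at 99.2 ± 9.22 TPM, followed by Dnase2a (68.0) and Tbk1 (66.5), which overlapped. Irf3 (46.1), Aim2 (45), Ifi204 (43.4) and Ikbke (39.0) then overlapped from each to the next. In KO Tmem173 went from sixth on day 7 (47.7 ± 10.6) to second on day 10 (109.0 ± 26.9), and there Samhd1 (146.4 ± 16.2) overlapped it.

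Which genes vary with the interferon response between libraries of the same genotype and day was described from deviations from the group means. Over the 24 libraries, which share mice and scaling, Ifi204 and Cgas followed the mean of the 48 interferon response genes most closely, both with Pearson r = 0.79. The library with the highest interferon mean also had the highest Ifi204 in 7 of 8 groups and the highest Cgas in 4 of 8. That count did not set Cgas apart, with 5 of 8 for Tbk1 and 4 of 8 for Aim2, Tmem173 and Samhd1. For Cgas the correlation came from the KO libraries (r = 0.89) more than the WT libraries (0.23), while Ifi204 had 0.78 and 0.86. Tmem173 had 0.56, Samhd1 0.46 and Aim2 0.40. Tbk1 (-0.12), Irf3 (-0.35), Ikbke (-0.37) and Dnase2a (-0.60) were negative. Some signs differed between genotypes, with 0.64 in WT and -0.37 in KO for Tbk1, 0.29 and -0.67 for Ikbke, and -0.18 and 0.71 for Tmem173. On log2(TPM + 1) all 9 were higher and the signs of Tbk1 (0.49) and Irf3 (0.27) turned, while Dnase2a stayed negative (-0.20), and Samhd1 (0.81) and Aim2 (0.69) moved as well, so these values depend on the scale. Leaving out each mouse number in turn, r ranged from 0.67 to 0.90 for Ifi204 and from 0.65 to 0.88 for Cgas. Those of Tmem173 and Samhd1 reached as low as 0.14, and that of Tbk1 ran from -0.25 to 0.29. For Irf3 the range was -0.58 to -0.02 and for Ikbke -0.60 to -0.05. KO 67 on days 7 and 9 and KO 64 on days 8 and 10 had the highest interferon means of their groups, from 5.34 to 5.69 log2 CPM.

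**Figure D4:**
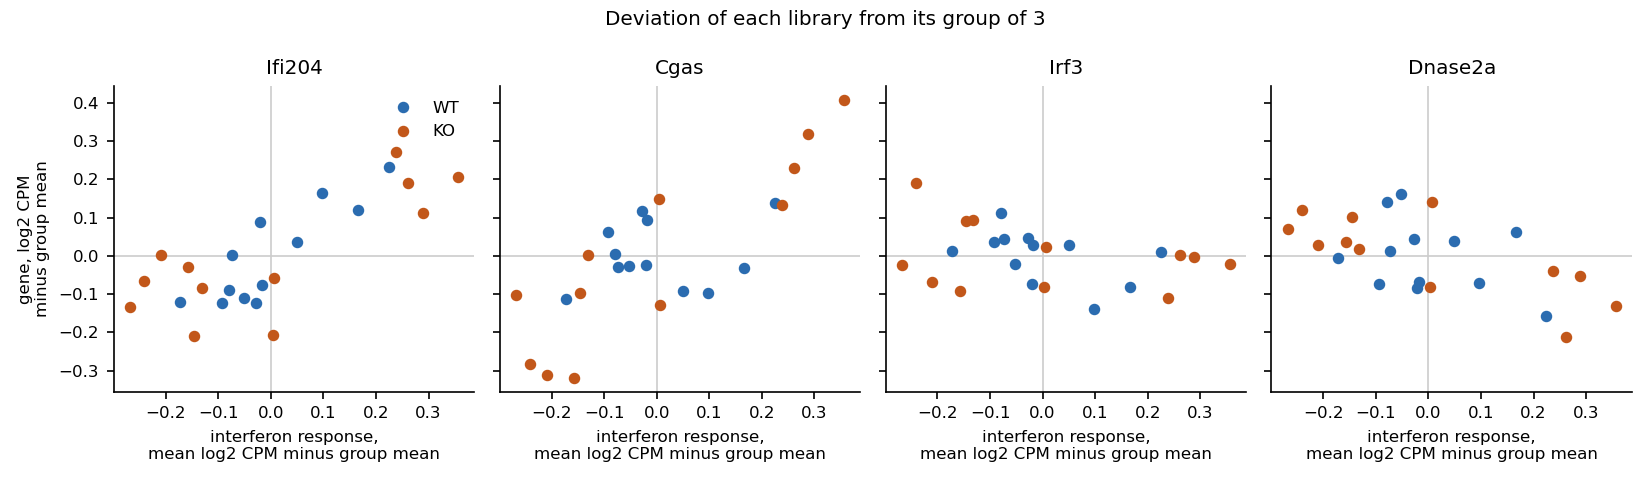
Deviation of each library from the mean of its group of 3, for the interferon response mean (x axis) and for Ifi204, Cgas, Irf3 and Dnase2a (y axis), both in log2 CPM, with WT blue and KO orange. Ifi204 and Cgas run along the interferon mean (r = 0.79 each), while Dnase2a runs against it (r = -0.60). Irf3 had r = -0.35, with -0.58 to -0.02 over left-out mouse numbers and 0.27 on log2(TPM + 1).

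Trex1 (ENSMUSG00000049734.9, chromosome 9, 109057933 to 109059734, reverse strand), which encodes the main cytosolic DNA exonuclease, had 0 counts and 0 TPM in every library. All 1147 of its exonic bases lie within exons of Atrip on the same strand in GENCODE M21, and Atrip had 203 to 488 counts per library. Across the annotation, 141 of 141 protein-coding genes that lie wholly inside same-strand exons of other genes were at 0 in all libraries, against 22.6% of 21498 other protein-coding genes. For 34 genes wholly inside exons on the opposite strand the figure was 12 (35.3%). Nothing can be read about the level of Trex1 in these cells from the deposited counts, and how reads in shared exons were counted is not given in the sources used here. No other gene of the 10 shares exonic bases with a gene on its own strand.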

How the data were processed

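The authors deposited raw counts per gene as whole numbers, and TPM per gene, for 24 libraries, with a table pairing Ensembl identifiers with symbols. The submitters' processing notes name STAR 2.6.1, FastQC 0.11.9, DESeq2 1.22.2 and mm10. The counter, its strand setting and the gene lengths behind the TPM are not given in the sources used here. Per the labels' protocols libraries were poly(A)-selected and made with 2 stranded kits, not assigned to libraries, so no batch term was set. Of 55487 identifiers, 55094 matched GENCODE M21 with their version.

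Counts were tested with edgeR 4.0.16 in R 4.3.3 (filterByExpr, TMM, quasi-likelihood fit of all 24 libraries with 1 coefficient per group), which kept 14535 genes. P-values were two-sided and Benjamini-Hochberg adjusted over these genes in each of 9 comparisons, with a threshold of 0.05. Standard errors were derived from each log2 fold change and the F value of its test. Log2 CPM used a prior count of 2. Alternatives used DESeq2 1.42.0 and limma 3.58.1 (trend on log2(TPM + 1), and voom with the mouse number as a block). The test scripts were tested on simulated data. The 10 genes and all lists were chosen with earlier results of these data known. Named were all 10 genes, Arpc4 and, from each list and genotype comparison, up to 4 genes past the threshold without overlap or else the 2 with the smallest p, of which a selection is printed. Other named genes were chosen after their values were seen.

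To look for a library deposited more than once, libraries of a group were compared, and libraries of different groups were not. Chi-square per degree of freedom was 7.10 to 125 over 24 pairs. A library sequenced again would give about 1, and identical counts less. The value says nothing else of the spread between mice. Nothing says that the mice of a group came from separate litters or culture days, and p-values measure the spread between these libraries. Mouse numbers recur on each day. Same-numbered libraries deviated together, with a correlation above 0.1, in 17 of 18 WT pairs but in 8 of 18 KO pairs, so the numbers pair WT libraries better than KO libraries. Counts are amplified reads without molecular identifiers.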

Additional observations from a re-analysis of the deposited data

How the results depend on the processing

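Over 13 alternatives, 0 of the 9 genes were called for KO against WT on any day or for the interaction. Of 468 genotype values 45 changed sign, as did 11 of 117 interaction values and 15 of 468 day values, and 22 day calls were lost and 12 gained. Left-out mouse numbers gave ranges across 0 for these genotype differences: on day 7 Ikbke (-0.096 to 0.10), Irf3 (-0.059 to 0.0082) and Dnase2a (-0.17 to 0.0069), on day 8 Cgas (-0.0100 to 0.18), Aim2 (-0.018 to 0.017), Tbk1 (-0.039 to 0.058) and Ikbke (-0.14 to 0.13), on day 9 Tmem173 (-0.084 to 0.26), Ikbke (-0.065 to 0.096) and Irf3 (-0.070 to 0.018), and on day 10 Tmem173 (-0.056 to 0.17), Tbk1 (-0.0093 to 0.071), Ikbke (-0.16 to 0.14) and Samhd1 (-0.014 to 0.034). In the interaction they gave -0.19 to 0.35 for Cgas, -0.27 to 0.086 for Ifi204, -0.47 to 0.030 for Tmem173, -0.12 to 0.030 for Tbk1, -0.19 to 0.21 for Ikbke and -0.18 to 0.032 for Dnase2a. For day 10 against day 7 they gave -0.040 to 0.0088 for Tbk1 and -0.0023 to 0.049 for Samhd1 in WT, and -0.082 to 0.037 for Aim2, -0.14 to 0.018 for Tbk1, -0.0026 to 0.060 for Irf3 and -0.23 to 0.27 for the interferon median in KO. For day 8 in KO they gave -0.045 to 0.13 for Samhd1 and -0.43 to 0.0032 for Ifi204. Without a filter Aim2 (0.00040) and Tbk1 (0.00056) changed sign on day 8, and with a mean of at least 50 counts Samhd1 did on day 10 (-0.00090). Ikbke on day 10 was 0.00067 with DESeq2 size factors and 0.00069 with DESeq2. The cause was not tested.

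On log2(TPM + 1) the median change over all genes was 0.21 and 0.25 for day 10 against day 7 in WT and KO. For day 8 it was 0.17 and 0.17, and by edgeR all these medians lay within 0.02 of 0. TMM factors, which edgeR used and the TPM fit did not, were 0.877 to 0.886 on day 7 and 1.02 to 1.07 on day 10 in WT. In KO they were 0.895 to 0.969 and 1.00 to 1.13. Their part in these medians was not tested. On log2(TPM + 1) limma called 8 and 8 of the 9 genes on day 10, beside 6877 and 7499 of 14535 genes in WT and KO. Aim2 (0.16 and 0.26) and Tbk1 (0.26 and 0.23) turned positive in WT and KO, as did Samhd1 in KO (0.23). For day 8 Ifi204 was 0.11 in WT and 0.0097 in KO, and Irf3 was 0.16 in KO. The Aim2 calls were lost in WT and KO (-0.20 and -0.040, adjusted p = 0.178 and 0.803). Limma called 6 genes in WT and 5 in KO for day 8, beside 6803 and 6693 of 14535 genes. Calls gained in WT were Irf3 (0.26, adjusted p = 0.0177) and Samhd1 (0.27, adjusted p = 0.0155). In KO they were Samhd1 (0.28, adjusted p = 0.0120) and Tbk1 (0.34, adjusted p = 0.00129). Genotype values that changed sign were Irf3 on days 7, 9 and 10 (0.032, 0.039 and 0.0064), Aim2 on days 8 and 10 (0.051 and 1.40e-05), Tbk1 on day 8 (0.051) and Ikbke on days 8 and 10 (0.016 and 0.088), and the Ikbke interaction was 0.031. The correlations with the interferon mean were 0.49 for Tbk1 and 0.27 for Irf3. The median change of the 48 interferon response genes was 0.47 in WT and 0.32 in KO for day 10. For day 8 in KO it was 0.58. Limma called 24, 14 and 31 of the 48 genes in these 3 comparisons, beside 6877, 7499 and 6693 of 14535 genes. A fit of only the groups compared called 2 of 9 genes for day 8 in KO, beside 4526 of 13325 genes.

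Interferon response genes called on day 7 were 23 with DESeq2, 20 without a filter, 5 on log2(TPM + 1) and 7 with the mouse as replicate block. On day 9 they were 16 and 17 with DESeq2 and without a filter, and on day 10 they were 2 without a filter. Left-out mouse numbers gave 0 to 26 on day 7, 0 to 2 on day 9, 0 to 1 on day 10, 6 to 22 and 7 to 17 for day 10 against day 7 in WT and KO, and 13 to 27 for day 8 in KO. The fit with the mouse as replicate block (consensus correlation 0.00464 over both genotypes) also replaces edgeR with limma-voom, and the parts of tool and block were not separated. In it 1 member call was lost, Cgas for day 10 in WT (adjusted p = 0.0616), no other member call changed, and Ikbke changed sign on days 7 and 10 (-0.0013 and 0.0096) and in the interaction (0.011). All genes called ranged from 11 to 523 on day 7, 1 to 30 on day 8, 1 to 98 on day 9 and 1 to 82 on day 10, against 211, 1, 1 and 2. They ranged from 3255 to 6877 and 3201 to 7499 for day 10 against day 7 in WT and KO, against 5376 and 5353, and from 0 to 39 for the interaction, against 9. In KO the block, and leaving out a number across days, rest on numbers that did not stay with the same animal. With a consensus correlation so near 0 the fit hardly used the numbers. A block for the WT libraries alone was not fitted, so these calls do not show what pairing by WT number would change. Depth limits Ifi205 and Ifnb1, which rest on few counts.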

Other observations

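Other lists around these genes were read over time as well, and no list was tested against other genes. Of 9 interferon receptor and signalling genes, 3 were called higher and 6 lower from day 7 to day 10 in WT, and 3 and 5 in KO, beside 37.0% and 36.8% of all genes called in either direction. Of 9 inflammasome genes, 5 were called higher from day 7 to day 8 in WT and 0 lower, beside 43.4% of all genes called. The 5 included Casp4 (log2 change 0.62, edgeR adjusted p = 0.000207) and the adaptor Pycard (0.47, adjusted p = 0.000512). Aim2 fell over the same day by edgeR, but did not pass on log2(TPM + 1). From day 7 to day 10 the inflammasome counts were 2 higher and 3 lower in WT (median -0.02) and 1 and 2 in KO (median 0.05). Of 17 other sensors and cofactors 10 were called higher on day 10 in WT and 0 lower, and 10 and 1 in KO. Enpp1, the enzyme that degrades the cGAS product outside cells, fell by 1.43 in WT and 1.89 in KO on the log2 scale (adjusted p = 2.86e-05 and 1.85e-06), while Tmem173 rose.

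Ifi205 went from 0.173 ± 0.0779 CPM on day 7 to 2.93 ± 0.274 on day 8 and 0.978 ± 0.138 on day 10 in WT, and from 1.03 ± 0.0370 to 4.51 ± 1.73 and 1.65 ± 0.482 in KO (SD, n = 3 each). These genes were chosen after their values were seen.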
